A study of Mus musculus with 4 samples.

Results

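The genes described here encode subunits of the transcription factor NF-kB and its inhibitors, several of which NF-kB itself induces. Birc3, which encodes a ubiquitin ligase, was taken with them. RNA of these genes was read in sorted mouse AEC2, the alveolar type II cells of the lung, which make surfactant. All probe sets to which the platform annotation gives 1 symbol among 10 named genes were taken. This gave 20 of 45101 probe sets, for 9 of the 10 genes: Nfkbia, Nfkbib, Nfkbie, Nfkbiz, Tnfaip3, Tnip1, Nfkb2, Relb and Birc3. Nfkb1 was not analysed here. After averaging per gene, 8 of the 9 passed a filter that kept genes with a mean log2 signal above 7.05, the median of 18194 genes. Nfkbie did not.

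NF-kB dimers are held in the cytoplasm by IkB proteins until a receptor such as TLR4, the Toll-like receptor for lipopolysaccharide and for endogenous danger signals, activates the IkB kinase. The freed dimers then induce cytokines together with their own inhibitors, which ends the signal. Transcripts of some of these inhibitors turn over quickly and are widely used as a readout of recent NF-kB activity. A second, slower branch processes the Nfkb2 product and works through Relb. In the lung epithelium the pathway is known for the control of inflammatory mediators and of cell survival after injury.

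The groups were TLR4-/- cells 4 days after bleomycin, WT cells 4 days after bleomycin, untreated TLR4-/- cells and untreated WT cells, with 1 array each. Bleomycin, a DNA-damaging agent, is a common means of lung injury in mice. Per the labels, each array held RNA from sorted cells of 4 to 5 pooled mouse lungs. The sources used here did not give the allele, strain, age or sex of the mice. Of the 4 probe sets for Tlr4, 1 was lower in both TLR4-/- arrays (7.24 against 8.87 in WT untreated, 6.39 against 9.07 in WT at day 4), while 2 were higher in both. The remaining one was dim, between 3.89 and 4.05. Where these probe sets lie relative to the deleted part of the gene was not given either, so they check the labels only in part. The AEC2 marker Sftpc lay between 14.02 and 14.06 on the 4 arrays. Other AEC2 markers varied more, so Sftpc alone does not show equal AEC2 content. Cebpa read 11.28 in TLR4-/- and 11.48 in WT at day 4, against 12.07 in TLR4-/- and 11.79 in WT untreated. Over the 11 AEC2 markers past the filter, the median difference of day 4 from untreated was -0.06 in WT and -0.22 in TLR4-/-. With 1 array a group there is no spread between replicates. As a yardstick, any 2 arrays were taken to differ with an SD of 0.23 (log2), from limma's prior over 9097 genes, which rests on differences between the genotypes' responses and not on repeated pools.

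The start regions of several of these genes hold sequences that resemble the NF-kB binding site. They are shown because several of the inhibitors described below are textbook targets of the factor. Promoters of 7 members, 10 sequences in all, were in the RefSeq table (GRCm38.p6), each running from 250 bases before the start site to 50 after it. Both strands were searched for GGG and TTTCC with 2 bases of any kind between them, and for a looser motif, GGG and TTCC with 3 bases between them, which includes the first. The first was found in 3 of the 7 genes, Nfkbia, Tnfaip3 and Nfkb2, and the looser one in 5, which adds Nfkbie and Tnip1. Of 27025 genes in the table, 1.89% held the first and 6.31% the looser one. Nfkbib and Birc3 held neither in this window. In the sequences below, written 5′ to 3′ on the gene's strand, capitals mark matches to the looser motif. They are Nfkbia (chr12:55492598-55492897, minus strand), the first listed start of Tnfaip3 (chr10:19015361-19015660, minus strand) and the first and second listed starts of Nfkb2 (chr19:46304487-46304786 and chr19:46305445-46305744, plus strand).
Nfkbia: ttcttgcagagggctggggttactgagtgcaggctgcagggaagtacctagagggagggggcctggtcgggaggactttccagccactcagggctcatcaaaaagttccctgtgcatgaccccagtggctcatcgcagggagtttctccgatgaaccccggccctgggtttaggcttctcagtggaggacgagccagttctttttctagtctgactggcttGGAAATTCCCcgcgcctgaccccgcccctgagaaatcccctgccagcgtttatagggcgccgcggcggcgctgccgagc
Tnfaip3, first start: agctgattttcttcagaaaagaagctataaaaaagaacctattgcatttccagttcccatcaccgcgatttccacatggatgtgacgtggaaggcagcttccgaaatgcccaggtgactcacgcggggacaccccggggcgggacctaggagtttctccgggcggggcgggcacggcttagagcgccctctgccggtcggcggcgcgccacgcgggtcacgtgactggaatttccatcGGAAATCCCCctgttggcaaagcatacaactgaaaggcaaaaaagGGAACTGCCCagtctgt
Nfkb2, first start: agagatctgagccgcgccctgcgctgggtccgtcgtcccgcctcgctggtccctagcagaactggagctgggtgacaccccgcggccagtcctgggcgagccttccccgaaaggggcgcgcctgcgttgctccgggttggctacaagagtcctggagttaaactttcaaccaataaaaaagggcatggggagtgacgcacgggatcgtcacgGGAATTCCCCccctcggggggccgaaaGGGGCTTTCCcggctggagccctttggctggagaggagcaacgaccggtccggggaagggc
Nfkb2, second start: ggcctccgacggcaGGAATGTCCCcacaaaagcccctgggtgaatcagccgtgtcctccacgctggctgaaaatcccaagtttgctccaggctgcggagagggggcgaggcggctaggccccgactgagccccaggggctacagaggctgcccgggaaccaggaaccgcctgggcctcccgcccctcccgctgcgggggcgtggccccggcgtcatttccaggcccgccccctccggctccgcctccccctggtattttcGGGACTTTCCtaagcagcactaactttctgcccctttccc
The Nfkbia match lay 29 to 20 bases before the start and read GGGAATTTCC on the other strand. In Tnfaip3 the match 12 to 3 bases before the first start read GGGGATTTCC on the other strand. Nfkb2 had GGGGCTTTCC 11 to 2 bases before its first start and GGGACTTTCC 11 to 20 bases after its second. A match is a description of these letters and not evidence of binding in these cells.

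Of the subunits, Relb was lowest in untreated WT cells and higher on the other 3 arrays. Relb encodes the partner of the processed Nfkb2 product. Its single probe set read 7.65 in TLR4-/- and 7.61 in WT at day 4, against 7.35 in TLR4-/- and 6.81 in WT untreated. The day 4 arrays of the genotypes differed by less than 0.23, while each step down to untreated TLR4-/- and then to untreated WT exceeded it. The untreated WT value lay under the filter level, so the size of a fold over it is uncertain.

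Nfkb2, which encodes the precursor p100 and its product p52, averaged 8.68 in TLR4-/- and 8.75 in WT at day 4, against 8.52 in TLR4-/- and 8.45 in WT untreated. Its 2 probe sets did not move together. One read 9.01 and 8.77 in TLR4-/- and WT at day 4, against 8.40 and 8.10 in TLR4-/- and WT untreated. The other, whose ID marks probes that can match other transcripts, read 8.34 and 8.74 at day 4 in TLR4-/- and WT, against 8.64 and 8.80 untreated in TLR4-/- and WT. The first was therefore high on both day 4 arrays, and the second was low on the TLR4-/- day 4 array.

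Among the classical IkB genes, Nfkbia showed the clearest separation between genotypes at day 4. It encodes IkB-alpha, the inhibitor that is degraded and resynthesised within a single NF-kB cycle. Its average was 10.82 in TLR4-/- and 11.48 in WT at day 4, against 11.05 in TLR4-/- and 11.18 in WT untreated. The TLR4-/- day 4 array was thus the lowest of the 4 and the WT day 4 array the highest, and the 2 untreated arrays between them differed by less than 0.23. All 5 probe sets had this lowest value in TLR4-/- at day 4 except 1, which read 10.42 there and 10.41 in untreated TLR4-/-. The day 4 difference of TLR4-/- from WT ran from -0.81 to -0.45 over the 5.

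Nfkbib, which encodes IkB-beta, averaged 7.60 in TLR4-/- and 7.44 in WT at day 4, against 7.86 in TLR4-/- and 7.46 in WT untreated. Untreated TLR4-/- cells had the highest value, and the other 3 arrays lay within 0.23 of each other. The average rests on a bright probe set between 8.56 and 8.96 and a dim one between 6.14 and 6.82. The bright one was highest in TLR4-/- at day 4 (8.96, against 8.91 in untreated TLR4-/-), and the dim one in untreated TLR4-/-. Nfkbie, which encodes IkB-epsilon and did not pass the filter, averaged 6.79 in TLR4-/- and 6.92 in WT at day 4, against 6.06 in TLR4-/- and 6.46 in WT untreated. Both day 4 arrays lay above both untreated arrays, at signals where a fold has an uncertain size.

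Nfkbiz encodes IkB-zeta, a nuclear IkB protein that takes part in the induction of secondary genes such as Il6 and Lcn2. It averaged 9.33 in TLR4-/- and 9.95 in WT at day 4, against 9.69 in TLR4-/- and 10.09 in WT untreated. Both TLR4-/- arrays lay below both WT arrays. The 3 probe sets differed between TLR4-/- and WT at day 4 by -0.86, -0.79 and -0.20, so 1 of them showed the difference only within 0.23.

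Tnfaip3 encodes A20, a ubiquitin-editing enzyme that shuts off signalling upstream of the IkB kinase. Its average was 7.71 in TLR4-/- and 8.37 in WT at day 4, against 8.01 in TLR4-/- and 7.83 in WT untreated. WT cells at day 4 stood above the other 3 arrays. The brighter probe set read 9.43 in TLR4-/- and 10.21 in WT at day 4, against 9.50 in TLR4-/- and 9.36 in WT untreated. The dim one read 5.99 in TLR4-/- and 6.53 in WT at day 4, against 6.52 in TLR4-/- and 6.30 in WT untreated. Both put WT above TLR4-/- at day 4.

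Tnip1, whose product binds A20 and helps it to restrain NF-kB, spanned a range of 0.20 over the 4 arrays, from 8.47 to 8.67. Birc3 encodes cIAP2, a ubiquitin ligase of the TNF receptor complex that is itself a target of NF-kB. It averaged 7.96 in TLR4-/- and 8.49 in WT at day 4, against 8.33 in TLR4-/- and 8.48 in WT untreated. The TLR4-/- day 4 array was low, and the other 3 lay within 0.23. Its brighter probe set differed between TLR4-/- and WT at day 4 by -0.23 and its dimmer one by -0.82.

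**Figure D1:**
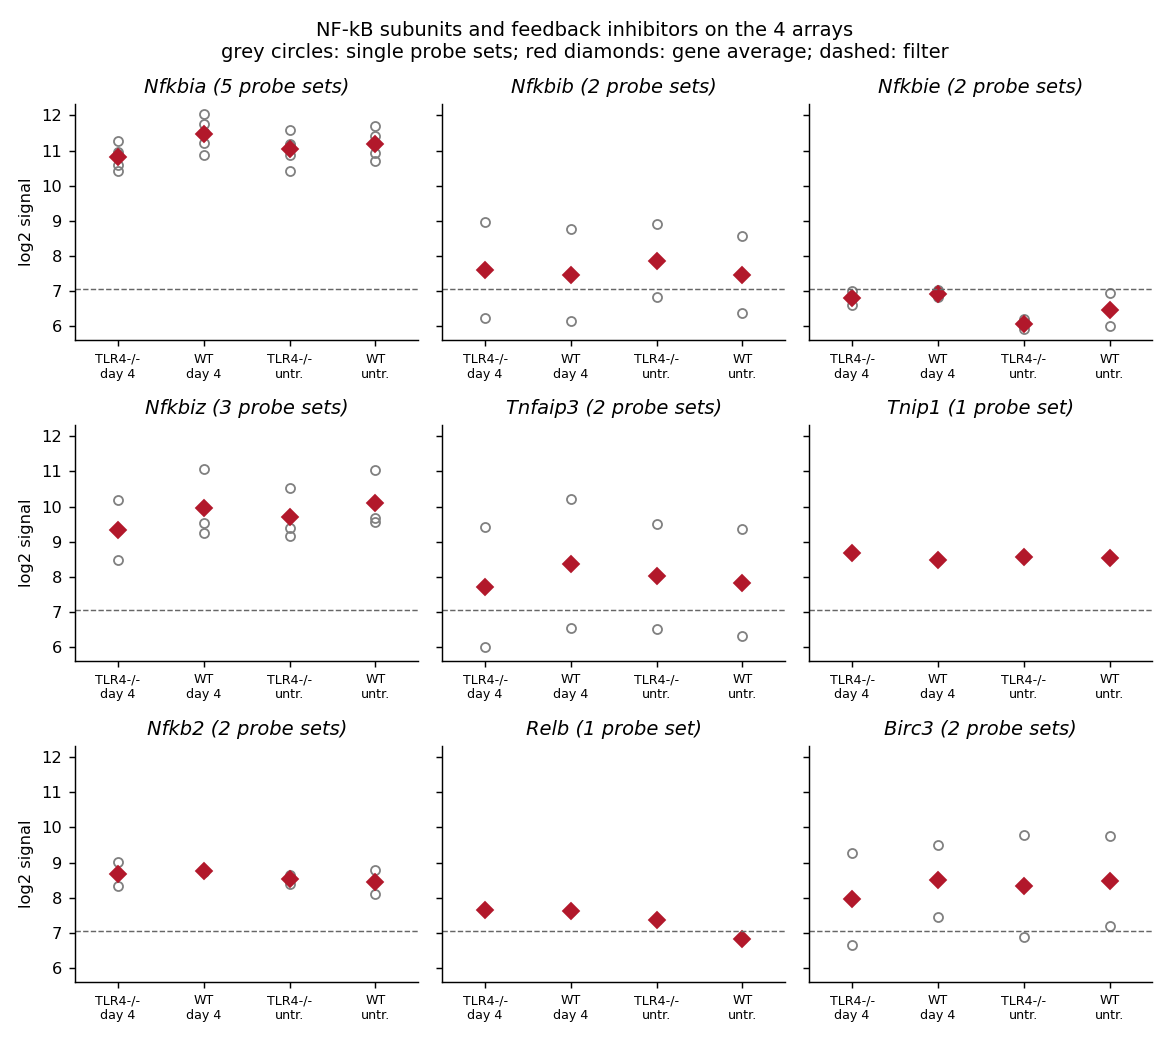
Log2 signal (y axis) of the 9 measured members on the 4 arrays (x axis), with each probe set as a grey circle, the gene average as a red diamond and the filter level of 7.05 as a dashed line. Nfkbia, Nfkbiz, Tnfaip3 and Birc3 each have their lowest average on the TLR4-/- day 4 array, and Relb its lowest in untreated WT.

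After bleomycin, no member changed by the test across both genotypes. Higher at day 4 in WT but lower in TLR4-/- were 3 of 8 members, Nfkbia, Tnfaip3 and Birc3, against 20.6% of all genes. Birc3 was higher in WT by only 0.01. In WT, Relb was 1.74-fold higher at day 4 than untreated, Tnfaip3 1.45-fold, Nfkbia 1.23-fold and Nfkb2 1.23-fold. At 1.5-fold, 1 of the 8 members past the filter was higher in WT, against 8.42% of 9097 genes, and 0 were lower, against 2.69%. In TLR4-/- cells, Relb was higher by 0.31 (log2), while the differences of the others included -0.37 for Birc3, -0.36 for Nfkbiz, -0.30 for Tnfaip3, -0.27 for Nfkbib and -0.23 for Nfkbia. None of the 8 reached 1.5-fold there, with 0 higher and 0 lower, against 7.97% and 5.13% of all genes. At 2-fold the counts were 0 in both directions and both genotypes, where all genes gave 2.55% higher and 0.308% lower in WT, and 2.45% higher and 0.89% lower in TLR4-/-. The members' median difference was 0.15 in WT and -0.25 in TLR4-/-, beside medians of 0.07 and 0.01 over all genes past the filter.

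The bleomycin effect over both genotypes was fitted with limma in an additive model with genotype, with 1 residual degree of freedom a gene and p-values adjusted over all 9097 genes. No member was called (0 of 8 rose and 0 of 8 fell), against 7.18% of genes that rose, 2.53% that fell and 9.71% in either direction. At an unadjusted limma p under 0.05 it was 1 of 8, against 23.9% of genes. That member was Relb, with an effect of 0.55 ± 0.17 (SE, higher in 2 of 2 genotypes, limma adjusted p = 0.061). Without the untreated TLR4-/- array, 3 arrays are too few for both terms, so the genotype term was dropped. Both day 4 arrays were set against the 1 untreated WT array, on which Relb was under the filter level. Relb then had an effect of 0.82 (limma adjusted p = 0.0119), and over all alternatives its adjusted p ran from 0.0119 to 0.755. The next were Nfkbiz at -0.25 ± 0.16 (SE, limma adjusted p = 0.369) and Nfkb2 at 0.23 ± 0.16 (SE, limma adjusted p = 0.423). Nfkbia and Tnfaip3, which differed in sign between the genotypes, had effects of 0.03 ± 0.17 and 0.12 ± 0.20 (SE). Both day 4 arrays lay above both untreated arrays for 2 of the 8, Nfkb2 and Relb, against 30.4% of all genes, and below them for 0, against 21.7%.

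**Figure D2:**
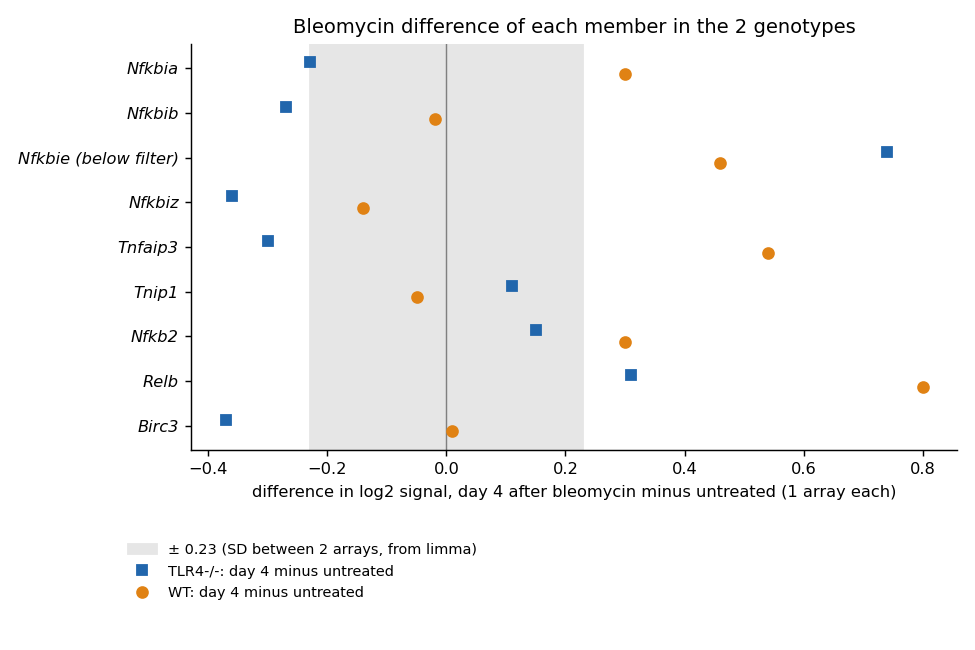
Difference in log2 signal between day 4 after bleomycin and untreated (x axis) for the 9 measured members (rows), in TLR4-/- cells (blue squares) and WT cells (orange circles), 1 array in each group. The grey band marks ± 0.23; for Tnfaip3 the TLR4-/- value of -0.30 and the WT value of 0.54 lie outside it on opposite sides.

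Sorted pools also differed in markers of other cells, and with bulk RNA fewer cells of a type and less RNA per cell cannot be told apart. Leukocyte and macrophage markers, 12 of 15 past the filter, rose in 11 and fell in 0 by the same limma test. Over all genes past the filter, 7.18% rose and 2.53% fell. In untreated cells C1qc (6.19 in TLR4-/- and 6.44 in WT), Itgax (6.23 in both) and C1qa were under the filter level. They passed the filter through their day 4 values and are among the 11. A count of risers past the filter is thus in part set by the filter, here and for the other markers below. The summed linear signal of the 15 leukocyte and macrophage markers was 10100 in TLR4-/- and 7820 in WT at day 4, against 3190 in TLR4-/- and 3130 in WT untreated. C1qa read 8.36 and 8.12 in TLR4-/- and WT at day 4, against 6.17 and 5.86 in TLR4-/- and WT untreated. Ptprc did not pass the test (limma adjusted p = 0.0901). The Y-linked gene Eif2s3y was also higher at day 4, at 8.87 in TLR4-/- and 8.85 in WT, against 6.86 and 6.82 in untreated TLR4-/- and WT. Xist, of the inactive X chromosome, fell by 0.94 (log2; limma adjusted p = 0.00555). By the same test, 3 of 3 mesothelial markers past the filter rose (Gpm6a 1.87, Msln 1.48, Upk3b 1.12), as did 1 of 2 fibroblast markers, Col1a1 (1.52), and 2 of 3 ciliated cell markers fell. The part of RNA from these cells or of the sex of the mice in the Relb and Nfkb2 values was not tested.

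In untreated cells, no member differed by 1.5-fold between genotypes. Relb was 1.45-fold higher in TLR4-/- than in WT and Nfkbib 1.32-fold higher, while Nfkbiz was 1.32-fold lower. The counts at that size were 0 of 8 higher and 0 of 8 lower, against 5.54% and 1.92% of all genes, and at 2-fold the shares of all genes were 0.78% and 0.341%. The members' median was 0.05, beside 0.08 over all genes. Club cell markers had a median of -1.56 and mesothelial markers of -1.51 in the same comparison, and their part in the members' values was not tested.

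At day 4 after bleomycin, 3 members were lower in TLR4-/- than in WT cells by 1.5-fold or more. Nfkbia and Tnfaip3 were 1.58-fold lower each and Nfkbiz 1.53-fold lower. Birc3 lay just under that size, at 1.44-fold lower. With only probe sets whose ID has no letter suffix, Nfkbiz (-0.53) fell short of 1.5-fold and Birc3 (-0.82) passed it. By gene average, 3 of 8 members at 1.5-fold lower compare with 0.616% of all genes, and 0 of 8 at 1.5-fold higher with 1.51%. The members' median was -0.30, beside 0.02 over all genes. At 2-fold there was no member, and 0.044% of all genes were higher and 0.055% lower. No replicate stands behind the difference, and the members were chosen with its direction known.

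Of the 20 member probe sets, 15 were lower in TLR4-/- than in WT at day 4. Among the 15 above the filter level 11 were lower, against 48.6% of 18773 probe sets, and 7 were at least 1.5-fold lower and 0 at least 1.5-fold higher, against 1.82% and 2.32%. Probe sets of 1 gene share its transcript and are not independent of each other. The remaining members Nfkbib, Tnip1, Nfkb2 and Relb differed by 0.15, 0.20, -0.08 and 0.04, all within 0.23, as did Nfkbie at -0.13.

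**Figure D3:**
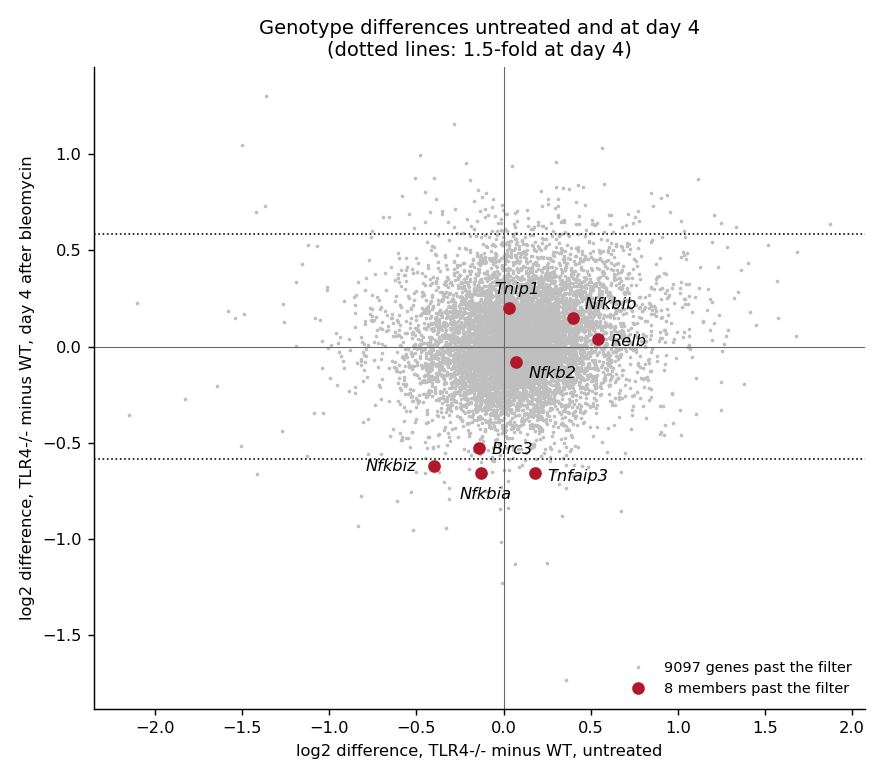
Log2 difference of TLR4-/- minus WT in untreated cells (x axis) and at day 4 after bleomycin (y axis), with each of 9097 genes as a grey point and the 8 members past the filter in red. Nfkbia, Tnfaip3 and Nfkbiz lie below the lower dotted line, which marks 1.5-fold at day 4, and Birc3 lies just above it.

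Marker lists of different cells differed between genotypes in different directions at day 4. Of the 12 leukocyte and macrophage markers past the filter, 11 were higher in TLR4-/- than in WT (median 0.38). The 1 that was lower compares with 46.7% of all genes. Itgax read 8.63 in TLR4-/- against 8.06 in WT. The 3 neutrophil markers past the filter had a median of -0.39, with S100a8 at 10.40 in TLR4-/- against 10.65 in WT. The summed linear signal of the 9 neutrophil markers on the array was 3390 in TLR4-/- and 4850 in WT at day 4, against 3000 in TLR4-/- and 4230 in WT untreated. All 11 AEC2 markers past the filter were lower in TLR4-/- at day 4, with a median of -0.17 and a summed signal of 78700 against 84500 in WT. The part of neutrophil RNA or of AEC2 RNA in the members' difference was not tested. Pecam1 (6.55 in TLR4-/- and 6.45 in WT) and Cd3e (5.83 and 5.20 in TLR4-/- and WT) were below the filter level on both day 4 arrays. The 1 endothelial marker past the filter, Vwf, read 7.98 in TLR4-/- against 7.11 in WT. Xist read 10.04 in TLR4-/- and 10.79 in WT at day 4, against 11.30 in TLR4-/- and 11.41 in WT untreated. Its day 4 difference of -0.75 ran the same way as that of the 3 members and was larger. The Y-linked genes past the filter, Eif2s3y and Kdm5d, differed at day 4 by only 0.02 and 0.03 (TLR4-/- minus WT). The part of the sex of the pooled mice in the members' difference was not tested.

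Across both treatments, limma called 0 of 8 members for genotype and 0 of 9097 genes, that is 0.0%. At an unadjusted limma p under 0.05 there were 2 of 8 members, against 9.04% of genes. The genotype effect was -0.51 ± 0.16 for Nfkbiz (SE, lower in 2 of 2 treatments, limma adjusted p = 0.322) and -0.39 ± 0.17 for Nfkbia (SE, lower in 2 of 2 treatments, limma adjusted p = 0.516). Both TLR4-/- arrays lay below both WT arrays for 3 of the 8, Nfkbia, Nfkbiz and Birc3, against 9.31% of all genes. They lay above for 2, Nfkbib and Tnip1, against 17.2%.

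The bleomycin difference was smaller or more negative in TLR4-/- than in WT for 7 of the 8 members, Tnip1 being the exception, as it was for 59.2% of all genes past the filter. The difference between the responses, TLR4-/- minus WT, was -0.84 for Tnfaip3, -0.53 for Nfkbia, -0.49 for Relb, -0.38 for Birc3, -0.24 for Nfkbib, -0.22 for Nfkbiz and -0.15 for Nfkb2. For Relb the negative difference came with a higher untreated TLR4-/- value and nearly equal day 4 values. By contrast, for Nfkbia, Tnfaip3, Nfkbiz and Birc3 the day 4 arrays were farther apart than the untreated ones. Tnfaip3 differed by -0.66 at day 4 and by 0.18 untreated (TLR4-/- minus WT). At 1.5-fold, 1 of 8 was lower, against 6.56% of all genes, and 0 were higher, against 4.02%. At 2-fold no member was higher or lower, against 0.671% and 0.846%. The median of the members was -0.31, beside -0.07 over all genes. With 1 array a group the difference of responses has no test. Markers of other cells also responded unequally. All 6 club cell markers were lower after bleomycin in WT (median -0.45) and higher in TLR4-/- (median 0.90). Their median difference between the responses was 1.61, and that of the 3 mesothelial markers past the filter was 0.99. The part of RNA from these cells in the members' responses was not tested.

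Other parts of the pathway were read from lists chosen with earlier results of these data known. Rela, the subunit with the main activating domain, read 9.96 in TLR4-/- and 9.62 in WT at day 4, against 9.47 in TLR4-/- and 9.24 in WT untreated, and had a bleomycin effect of 0.43 ± 0.16 (SE, limma adjusted p = 0.105). Rel, the subunit c-Rel of immune cells, read 7.94 in TLR4-/- and 8.31 in WT at day 4, against 7.93 in TLR4-/- and 8.11 in WT untreated. Bcl3, a nuclear IkB protein that works with p50 and p52, was highest in untreated TLR4-/- cells. It read 9.46 in TLR4-/- and 9.03 in WT at day 4, against 9.88 in TLR4-/- and 8.48 in WT untreated. Nfkbid, another nuclear IkB gene, was below the filter at 6.25 and 6.70 in TLR4-/- and WT at day 4, and 6.36 and 6.44 in untreated TLR4-/- and WT. None of the 3 that passed the filter was called for either effect.

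Of the kinases, adaptors and ubiquitin ligases upstream of NF-kB, 16 of 22 passed the filter, 1 rose after bleomycin and 0 fell. Over all genes, 7.18% rose and 2.53% fell, the shares to set beside this list and those that follow. The one that rose was Birc2, which encodes cIAP1, at 0.75 ± 0.16 (SE, higher in 2 of 2 genotypes, limma adjusted p = 0.00988). The IkB kinase genes Ikbkb and Ikbkg had effects of 0.05 and -0.17, and Map3k14, the kinase NIK of the slower branch, -0.17, without passing. Among 13 of 16 other negative regulators past the filter, 1 rose and 0 fell. That was Nlrc5, also an activator of MHC class I genes, at 0.95 ± 0.16 (SE, limma adjusted p = 0.00285). Zfp36, which destabilises cytokine transcripts, and Dusp1, a phosphatase of MAP kinases, differed between TLR4-/- and WT at day 4 by -0.23 and -0.02. Of 5 receptors of the slower branch, 3 passed the filter and 1 rose, Tnfrsf12a, the receptor of the cytokine TWEAK, at 0.70 ± 0.19 (SE, limma adjusted p = 0.0369). It read 11.33 in TLR4-/- and 10.65 in WT at day 4, against 10.25 in TLR4-/- and 10.34 in WT untreated.

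Target genes of NF-kB other than its inhibitors rose in part. Of 30 listed, 21 passed the filter, 8 rose after bleomycin and 0 fell, against 7.18% and 2.53% of all genes. Of the members 0 of 8 rose, a count too small to be set apart from that share. Lif, a cytokine of the IL-6 family, rose by 1.43 ± 0.16, Il1b by 1.24 ± 0.16, the chemokine Ccl7 by 1.06 ± 0.16 and the chemokine-binding receptor Ccrl2 by 1.05 ± 0.16 (SE, limma adjusted p from 0.000106 to 0.0012). Untreated, Lif (6.81 in TLR4-/- and 6.37 in WT) and Ccl7 (6.79 in TLR4-/- and 6.36 in WT) were under the filter level. They passed the filter through their day 4 values and are among the 8, so the sizes of their rises are uncertain. Il1b and Ccl7 are also made by macrophages, whose markers rose alongside. The part of macrophage RNA in the rise of the target genes was not tested. At day 4, 15 of the 21 were lower in TLR4-/- than in WT, against 46.7% of all genes, with a median of -0.14 beside 0.02 over all genes. The neutrophil chemokine Cxcl1 read 9.84 in TLR4-/- and 10.86 in WT, and Cxcl2 read 9.87 in TLR4-/- and 10.54 in WT. The difference of TLR4-/- from WT was -0.76 for Ccrl2 and -0.44 for Irf1, an interferon regulatory factor. Of the 21, 3 were at least 1.5-fold lower and 0 at least 1.5-fold higher, against 0.616% and 1.51% of all genes. The response was more negative in TLR4-/- than in WT for 18 of the 21 (median -0.29), against 59.2% of all genes (median -0.07), with -1.62 for the acute phase gene Saa3, -0.92 for the transcription factor gene Cebpd and -0.73 for Ptges, which encodes an enzyme of prostaglandin synthesis. For these 3 the genotypes differed mainly in untreated cells, by 1.68, 0.83 and 0.53 (TLR4-/- minus WT), and at day 4 by 0.06, -0.09 and -0.21. Cxcl1 differed after bleomycin by -0.21 in TLR4-/- and 0.79 in WT.

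**Figure D4:**
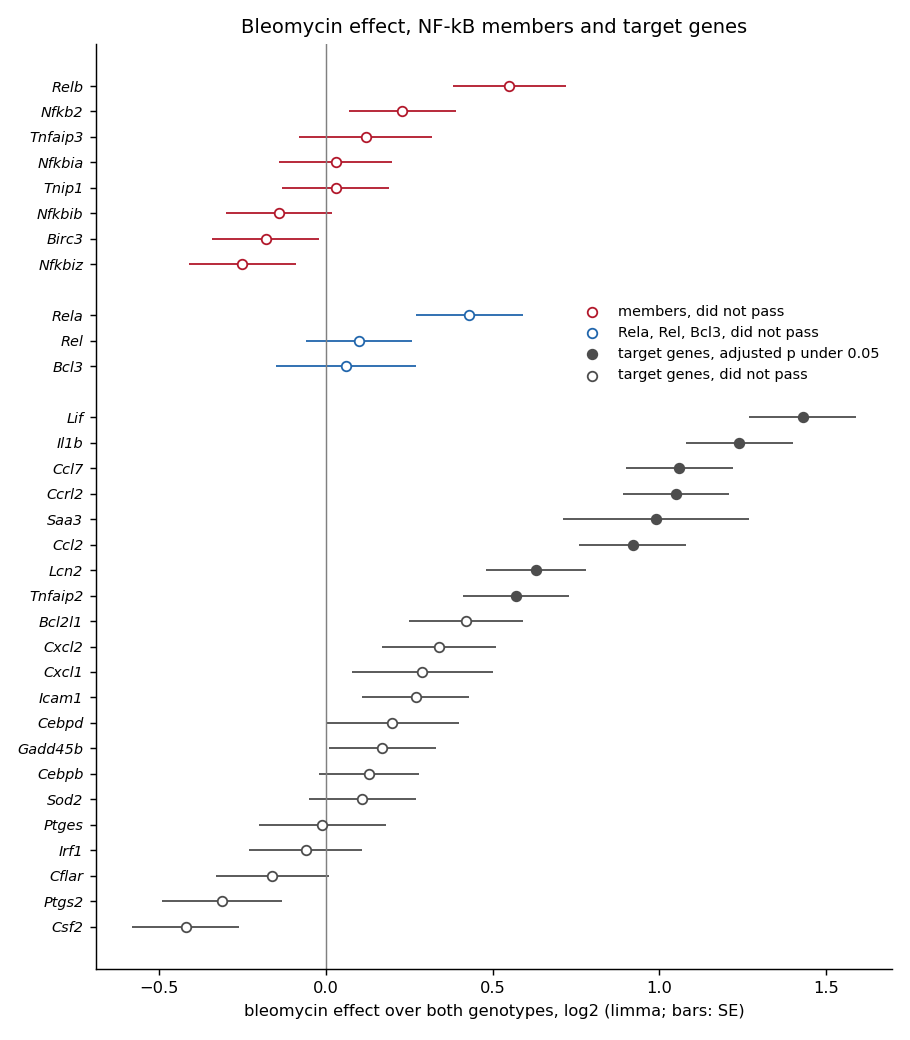
Bleomycin effect over both genotypes on the log2 scale (x axis; points are limma estimates, bars are SE) for 8 members in red, Rela, Rel and Bcl3 in blue and 21 target genes in dark grey. Filled points passed the test; 8 target genes did, from Tnfaip2 at 0.57 to Lif at 1.43, and no member did.

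The genes most like Relb and Nfkbiz, the members past the filter with the widest range over the arrays, were sought by the Euclidean distance between the 4 values after each gene's mean was taken off. Closest to Relb were Ormdl1 (0.03), Gins4 (0.04), Bap1 (0.05), Aox1 (0.05) and Mob3a (0.05). Gins4 read 9.04 in TLR4-/- and 8.96 in WT at day 4, against 8.73 in TLR4-/- and 8.22 in WT untreated, so that untreated WT was again the lowest array. Closest to Nfkbiz were Usp8 (0.14), Rab4b (0.14), Nr1d2 (0.15), Cacna1c (0.15) and Gfpt1 (0.15). These distances are in log2 units and rest on 4 arrays and 9097 genes.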

How the data were processed

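AEC2 from 4 pools of mouse lungs were profiled on 4 Affymetrix 3' arrays, 1 for each group. Per the labels' protocols, RNA was extracted with Trizol, and kits were used to amplify the cDNA and to label it with biotin. The deposited values, 1 per probe set, are on a log2 scale, judged by their range; the array quantiles were nearly equal. The sources used here did not name the software or the normalization, and detection calls were not used. Array medians lay between 6.93 and 6.98. Groups were taken from the sample titles.

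Probe sets with 1 symbol (34958, of which 34754 matched the RefSeq table by Entrez identifier) were averaged per gene. Genes with a mean above 7.05 were kept. The test for bleomycin and genotype effects used limma 3.58.1 (R 4.3.3) with an additive model (eBayes, trend and robust off, Benjamini-Hochberg adjusted p under 0.05 over all genes), which takes unequal responses of the genotypes as error. The step was tested on simulated data. Differences between single arrays had no test and were described at 1.5-fold and 2-fold. The members and lists were chosen with earlier results of these data known. All members were named, with up to 4 genes of each other list and comparison by size. Alternatives were other rules for probe sets, no filter, other scalings, other limma settings and leaving out each array, which left the tested factor alone in the model. The number of arrays limits the precision.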

Additional observations from a re-analysis of the deposited data

Results flagged for a closer look

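The bleomycin difference ran in opposite directions in the genotypes for 4 of the 8 members past the filter, with 1 pair of arrays each, and the difference between the genotypes was not tested. For Tnfaip3 it was -0.30 in TLR4-/- and 0.54 in WT, a difference of -0.84. For Nfkbia it was -0.23 in TLR4-/- and 0.30 in WT, a difference of -0.53. For Birc3 it was -0.37 in TLR4-/- and 0.01 in WT, a difference of -0.38, and the WT value was within the spread of 0.23. For Tnip1 it was 0.11 in TLR4-/- and -0.05 in WT, a difference of 0.17, with both values within that spread. Over all genes past the filter, 20.6% were higher after bleomycin in WT and lower in TLR4-/-, the order seen for Nfkbia, Tnfaip3 and Birc3. The share with the reverse order, seen for Tnip1, was not counted, so the 4 of 8 have no share of all genes beside them.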

How the results depend on the processing

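The count of members at least 1.5-fold lower in TLR4-/- at day 4 was 3 as reported and 3 under each of the 5 alternatives for probe sets, filter and scaling, a check chosen after seeing the data. The names differed: with only probe sets whose ID has no letter suffix, Birc3 (-0.82) took the place of Nfkbiz (-0.53). The 1 member at least 1.5-fold higher after bleomycin in WT was Relb, but Tnfaip3 (0.85) with the brightest probe set alone, where Relb did not pass the filter. With those suffix-free probe sets, 5 members were left. The median genotype difference was then -0.66 at day 4, against -0.30 as reported, and -0.21 untreated, against 0.05, and 1 member (Relb, 0.55, limma adjusted p = 0.026) was called for bleomycin. In that setting fewer members and fewer genes entered. Leaving out 1 array in turn also dropped the other factor from the model, so that array and model cannot be told apart; it gave 0 to 1 members called for bleomycin and 0 for genotype. The 1 was Relb, without the untreated TLR4-/- array. Where each gene was represented by its brightest probe set alone, the bleomycin difference of Nfkb2 was -0.30 in TLR4-/- and -0.06 in WT, against 0.15 and 0.30 as reported for TLR4-/- and WT. The WT difference of Birc3 ran from -0.24 to 0.26 over the alternatives. Nfkbia ran from -0.75 to -0.65 and Tnfaip3 from -0.78 to -0.65 in TLR4-/- minus WT at day 4, and Nfkbiz from -0.86 to -0.53. With no filter, which adds Nfkbie, the day 4 genotype median was -0.13. The median bleomycin difference ran from -0.30 to -0.19 in TLR4-/- and from 0.03 to 0.30 in WT, and that of the response from -0.49 to -0.24. Differences between single arrays that need a left-out array have no value. No paired analysis was possible because the labels give no replicate numbers and each group has 1 array.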
